A study of Sus scrofa with 24 samples.

Results

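Longissimus dorsi muscle of Pietrain (Pi) embryos was compared with that of German Landrace (DL) embryos at 35 days post conception (dpc), on 6 arrays out of the 24 of the series. The arrays were chosen by breed and stage alone, as 3 Pi pools (a, b and c) against 3 DL pools (a, b and c). The other 18 arrays held the same muscle of both breeds at 63 dpc, at 91 dpc and in adults, again as 3 pools a group. RNA of each pool was labelled with biotin and hybridised to the Affymetrix Porcine Genome Array, which carries several short probes (a probe set) for each transcript. No treatment or engineered allele is given for any group. The labels do not say how many embryos, of which sex or litter, made up a pool, so p-values measure the spread between pools, which may be partly technical. A title element "K" is carried by the 35 dpc samples alone and is unexplained, and the description field calls the pigs peripubertal although the source field names embryos. Values are the authors' normalized log2 signals, so a difference of 1 is a 2-fold difference, and all differences are Pi minus DL.

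Pietrain pigs are known for heavy, lean muscling, and German Landrace is a white breed kept largely as a dam line. In the pig embryo of this age, myoblasts derived from the somites fuse into primary fibres, which lay down sarcomeres with embryonic, slow and fast protein isoforms side by side; secondary fibres form around them later. Contraction is switched on when calcium leaves the sarcoplasmic reticulum through the ryanodine receptor RYR1 and binds troponin, which shifts tropomyosin on the actin filament and lets myosin bind. A variant of RYR1 that causes porcine stress syndrome has been frequent in Pietrain pigs; the RYR1 genotype of these embryos is not given.

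The 6 arrays were close to each other. Pearson's r over all probe sets was 0.985 to 0.989 between Pi pools, 0.990 to 0.992 between DL pools and 0.980 to 0.984 between a Pi and a DL pool. Several technical measures nevertheless differed between the breeds. The signal of the GAPDH control at its 3′ end minus that at its 5′ end, which is larger where RNA or labelled copies are shorter, was 1.18, 1.08 and 1.21 in Pi pools a, b and c, against 0.80, 0.60 and 0.52 in DL pools a, b and c. The groups did not overlap (difference 0.52, exact two-sided permutation p = 0.1, the smallest that 3 against 3 arrays can give). Spiked hybridisation controls averaged 9.94 to 10.14 in the Pi pools and 10.40 to 10.64 in the DL pools (difference -0.51, exact permutation p = 0.1). Poly-A spike controls averaged 8.07, 6.52 and 7.01 in the Pi pools and 6.33, 6.17 and 5.91 in the DL pools (difference 1.06, exact permutation p = 0.1). All 3 measures separated the breeds completely, so their part in any breed difference below was not tested and cannot be told apart from breed in these arrays. The actin control's 3′ minus 5′ value overlapped between breeds (difference 0.12, exact permutation p = 0.4).

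Transcripts of the liver genes TF and SERPINA1 were above background in all pools, at unequal levels. TF, the iron carrier of plasma, was at 4.58, 3.87 and 6.17 in Pi pools a, b and c and at 9.45, 9.13 and 3.42 in DL pools a, b and c. SERPINA1, the plasma antitrypsin, was at 7.10, 6.32 and 8.80 in Pi and 10.52, 11.22 and 6.14 in DL. In both genes DL pools a and b were the highest of the 6 and DL pool c the lowest, and neither gene passed the test.

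**Figure D1:**
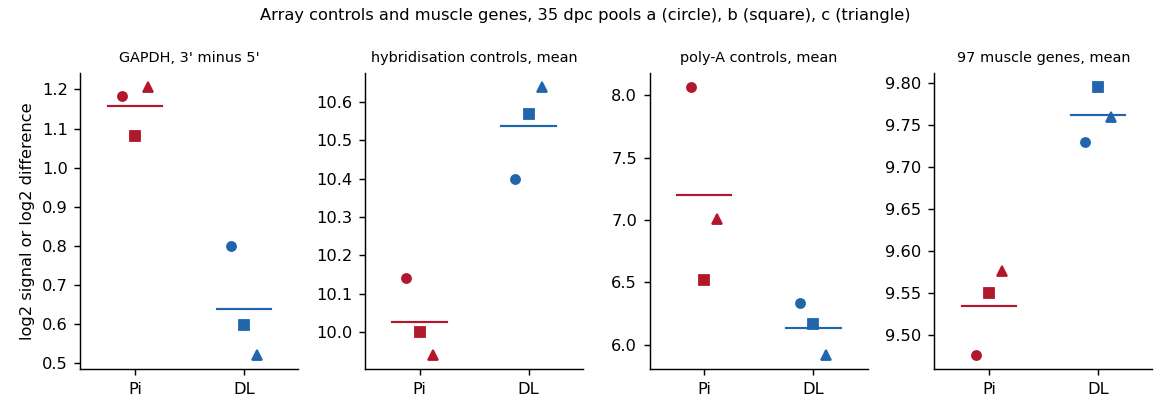
Array measures of each pool at 35 dpc (circle a, square b, triangle c; lines are group means; each y axis has its own range and does not start at 0). GAPDH 3′ minus 5′ and the poly-A controls were higher, and the hybridisation controls and the mean of 97 muscle genes lower, in all 3 Pi pools than in all 3 DL pools.

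Of 23999 probe sets tested, 1008 (4.2%) passed at a Benjamini-Hochberg adjusted p under 0.05 in limma, a linear model that moderates each probe set's spread. In Pi 458 were higher (1.91%) and 550 lower (2.29%). Among the 6765 genes with a symbol, each taken by its brightest probe set, 141 were higher (2.08%) and 204 lower (3.02%) in Pi. Most differences were modest: the median size of a passed difference was 0.74, and 291 of the 1008 reached 2-fold. The pools of the 2 breeds overlapped in none of the 1008, which the test itself favours. Over all genes, every Pi pool lay above every DL pool in 1067 (15.8%) and below in 1204 (17.8%).

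These calls depended on every pool and on the scale. Left out in turn, Pi pools a, b and c left 673, 225 and 0 calls, and DL pools a, b and c left 0, 2 and 1. With the spread estimated from all 24 arrays 966 probe sets passed, of which 414 were among the 1008; by this fit 128 genes were higher (1.89%) and 235 lower (3.47%) in Pi. Below, a gene said not to pass did not pass in this fit either unless its value there is given. List members that passed but were not among the 3 largest differences of their list were named after their values were seen. Scaling the arrays to the hybridisation controls in place of equal distributions moved the median of all differences from 0.00 to 0.51 and the share of higher calls from 45% to 97.8%, with 13984 calls. Every difference below is therefore relative to the whole distribution of its array.

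Genes of the contractile apparatus were lower in Pi where they differed. The 8 muscle lists covered fast, slow and embryonic isoforms, Z-disc, calcium handling, myogenic regulators, muscle energy enzymes and the dystrophin complex. These lists were written with earlier results of these data known in part, so they are not independent of the data. Of their 107 measured genes 14 fell in Pi (13.1%, against 3.02% of all genes) and 0 rose (against 2.08%). At an unadjusted p under 0.05 in limma, 29 were lower (against 15.3% of all genes) and 10 higher (against 11.2%). Beyond the calls, 35 of the 107 had every Pi pool below every DL pool (32.7%, against 17.8% of all genes) and 13 had every Pi pool above (12.1%, against 15.8%). Their median difference was -0.17, beside -0.02 over all genes, and 70 of 107 differences were negative. The mean signal of the 97 that were above background on all arrays was 9.48, 9.55 and 9.58 in Pi pools a, b and c, against 9.73, 9.80 and 9.76 in DL pools a, b and c. The fit with all 24 arrays gave 15 lower and 0 higher, and 11 genes were lower in both fits. Without Pi pool a 4 of the 107 were lower and without Pi pool b 5 (TNNT2, RYR1 and PYGM in both); without any one of the other 4 pools 0 were. With scaling to the hybridisation controls 5 were lower (TNNT2, PYGM, CKM and RYR1 among them) and 39 higher. The GAPDH 3′ minus 5′ value and the hybridisation controls moved with these genes, and their part was not tested. A smaller share of muscle fibres in the tissue taken and less of these transcripts per fibre cannot be told apart in pooled bulk RNA.

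**Figure D2:**
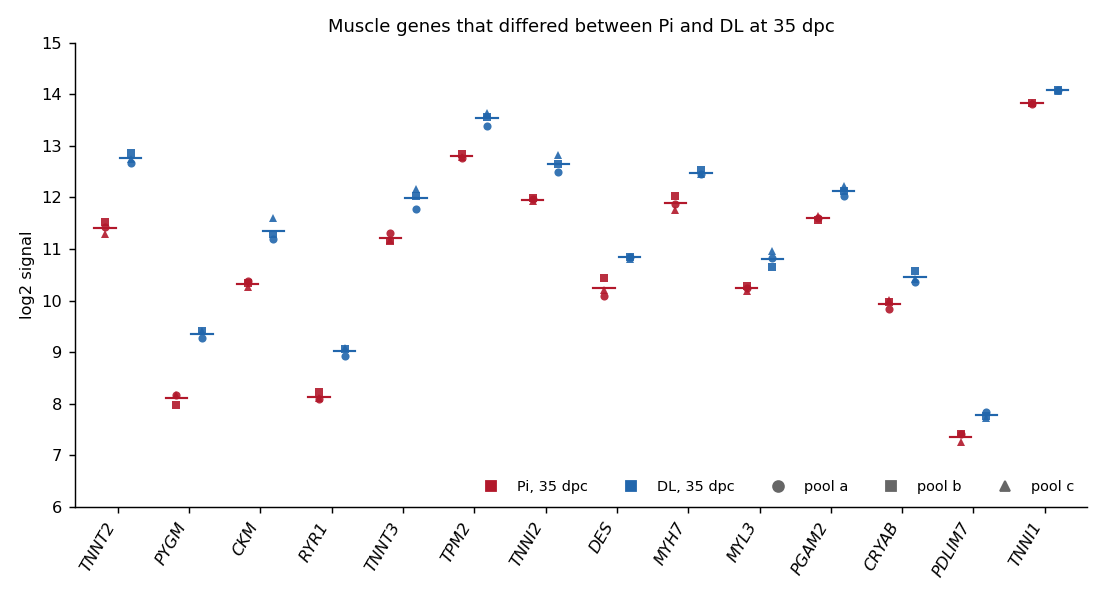
Log2 signal of the 14 muscle genes that passed the test, in each pool of Pi (red, left) and DL (blue, right), with group means as lines; the y axis starts at 6. In all 14 every Pi pool lies below every DL pool, by the widest margin in TNNT2 and PYGM.

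Troponin, the calcium switch of the thin filament, has a tropomyosin-binding subunit (T), an inhibitory subunit (I) and a calcium-binding subunit (C), each with several isoforms. TNNT2, the cardiac troponin T that embryonic skeletal muscle also makes, was at 11.43, 11.52 and 11.29 in Pi pools a, b and c, against 12.67, 12.87 and 12.74 in DL pools a, b and c. The gap between the breeds was several times the range within either, and the difference of -1.35 ± 0.09 (SE) made TNNT2 2.54-fold lower in Pi (adjusted p = 0.0169 by limma; 0.0132 with all 24 arrays). The fast isoforms went the same way. TNNT3, fast troponin T, was at 11.32, 11.16 and 11.18 in Pi and at 11.77, 12.02 and 12.17 in DL (difference -0.76 ± 0.12, limma adjusted p = 0.0429; 0.000268 with all 24 arrays). TNNI2, fast troponin I, was at 11.96, 11.99 and 11.92 in Pi and at 12.49, 12.65 and 12.82 in DL (-0.70 ± 0.09, limma adjusted p = 0.0345; 4.75e-05 with all 24 arrays). In both fast genes DL pool a was the DL pool nearest to Pi.

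The slow and calcium-binding troponins differed little. TNNI1, slow troponin I, was at 13.82, 13.84 and 13.84 in Pi and at 14.08, 14.08 and 14.06 in DL, a difference of -0.24 ± 0.03 that passed here (limma adjusted p = 0.0344) but not with all 24 arrays (0.0985), and that was 0.27 on the hybridisation control scale. TNNT1, slow troponin T, had 14.32, 14.24 and 14.18 in Pi and 14.27, 14.26 and 14.08 in DL, fully overlapping. TNNC1, the slow troponin C, lay above DL in all Pi pools (14.29, 14.29 and 14.27 in Pi, 13.98, 14.05 and 14.09 in DL) with a difference of 0.24 that did not pass (limma adjusted p = 0.0565). TNNC2, the fast troponin C, differed by -0.14 and did not pass. Of the 7 troponin genes on the muscle lists, 4 were lower in Pi and the other 3 did not pass, with TNNI1 and TNNC2 changing sign on the hybridisation control scale.

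Tropomyosin lies along the actin filament under troponin's control. TPM2, the beta chain, was at 12.76, 12.85 and 12.78 in Pi pools a, b and c and at 13.39, 13.56 and 13.64 in DL pools a, b and c. No pools overlapped, and the difference of -0.74 ± 0.08 passed by limma (adjusted p = 0.0262; 0.000305 with all 24 arrays). TPM2 has 4 probe sets, of which 2 were lower in Pi, with differences from -0.89 to 0.03. TPM1, the alpha chain, differed by 0.21 and TPM3, the slow chain, by -0.27, neither past the test.

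Among myosins, the slow heavy chain MYH7 was at 11.88, 12.02 and 11.76 in Pi and at 12.46, 12.52 and 12.45 in DL. All Pi pools were below all DL pools (-0.59 ± 0.08, limma adjusted p = 0.0342; 0.000836 with all 24 arrays). MYL3, the slow essential light chain, was at 10.25, 10.28 and 10.19 in Pi and at 10.82, 10.65 and 10.95 in DL (-0.57 ± 0.09, limma adjusted p = 0.0432), a call that the fit of all 24 arrays did not make (0.0853). The other light chains did not pass. MYL1, the fast essential chain, differed by 0.08, MYLPF, the fast regulatory chain, by -0.02, MYL2, the slow regulatory chain, by -0.17 and MYL4, the embryonic chain, by -0.17; MYLPF and MYL2 were positive on the hybridisation control scale. MYH2, an adult fast heavy chain, was low in all pools (3.86, 5.29 and 4.19 in Pi, 4.6, 5.62 and 5.01 in DL) and overlapped between breeds. ACTC1, the cardiac actin used by embryonic muscle, differed by -0.11 and MYBPC1, slow myosin-binding protein C, by -0.28, both with overlapping pools.

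In the Z-disc and its links to the cell membrane, DES, the intermediate filament desmin, was at 10.09, 10.43 and 10.20 in Pi pools a, b and c and at 10.85, 10.84 and 10.81 in DL pools a, b and c. The DL pools were nearly equal and Pi pool b was the Pi pool nearest to them (-0.60 ± 0.10, limma adjusted p = 0.0461; 0.00468 with all 24 arrays). CRYAB, a small heat shock protein that binds desmin, was at 9.83, 9.96 and 10.02 in Pi and at 10.36, 10.58 and 10.41 in DL (-0.52 ± 0.08, limma adjusted p = 0.046; 0.0137 with all 24 arrays). HSPB1, another small heat shock protein of muscle, was at 10.84, 10.96 and 10.94 in Pi and at 11.49, 11.52 and 11.56 in DL (-0.61 ± 0.05, limma adjusted p = 0.019; 8.96e-05 with all 24 arrays). The small heat shock genes were thus 1.43-fold and 1.53-fold lower in Pi, CRYAB and HSPB1 in that order. PDLIM7, a Z-disc adaptor, fell by 0.42 here (limma adjusted p = 0.0424) but did not pass with all 24 arrays (0.671) and was 0.09 on the hybridisation control scale.

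The giant and structural genes of the same list did not pass. TTN, the elastic filament titin, was at 12.15, 12.66 and 12.93 in Pi and at 12.64, 12.76 and 12.88 in DL, and NEB, the thin filament ruler nebulin, at 12.33, 12.89 and 13.07 in Pi and at 12.53, 12.83 and 12.84 in DL. In both, Pi pool a was the lowest of the 6 and the breeds overlapped. XIRP1, an actin-binding protein with the largest difference of the list, was at 2.53, 3.52 and 3.2 in Pi and at 3.57, 4.63 and 3.58 in DL, close to background, and did not pass (limma adjusted p = 0.334). LMOD3, a nucleator of thin filaments, and MYOT, the Z-disc protein myotilin, lay higher in every Pi pool, by 0.42 and 0.33, without passing. Of the 32 measured Z-disc and sarcomere genes 4 fell and 0 rose (against 3.02% lower and 2.08% higher of all genes). The median difference was -0.14.

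Calcium release genes included the best-known stress susceptibility gene of the breed. RYR1, the calcium release channel, was at 8.09, 8.22 and 8.10 in Pi pools a, b and c and at 8.93, 9.06 and 9.08 in DL pools a, b and c. The groups were apart by more than the range of either, and RYR1 was 1.85-fold lower in Pi (-0.89 ± 0.07, limma adjusted p = 0.0171; 0.00413 with all 24 arrays). ATP2A1, the calcium pump of fast fibres, was at 5.12, 4.47 and 4.2 in Pi and at 5.73, 5.97 and 5.63 in DL. Its difference of -1.19 ± 0.26 did not pass here (limma adjusted p = 0.0798) and did with all 24 arrays (0.000477), and its second probe set differed by 0.36. ATP2A2, the slow fibre pump, was level between breeds at 13.13, 13.12 and 13.27 in Pi and 13.20, 13.13 and 13.12 in DL. Among the other channel genes, RYR3 was above background on 1 of 3 Pi arrays and all 3 DL arrays (2.09, 2.09 and 2.39 in Pi, 2.86, 4.11 and 3.19 in DL) and did not pass, and ORAI1, the store-operated channel of the cell surface, differed by -0.95 and passed only with all 24 arrays (limma adjusted p = 0.141 here, 0.0155 there). FKBP1A, which binds RYR1, differed by -0.45 and SLN, the pump inhibitor sarcolipin, by -0.21, neither past the test. Of 9 measured genes of this list 1 fell and 0 rose (against 3.02% lower and 2.08% higher of all genes). The median difference was -0.45, which became -0.21 with the median over each gene's probe sets.

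TMEM38A, a cation channel of the muscle reticulum that lets potassium balance calcium release, ran the other way. It was at 4.42, 5.21 and 5.50 in Pi pools a, b and c and at 2.10, 2.10 and 2.11 in DL pools a, b and c. The gene was not above background on any DL array and was above it on all Pi arrays, so TMEM38A was at least 6.29-fold higher in Pi (limma adjusted p = 0.0238; 0.00086 with all 24 arrays).

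Muscle energy enzymes showed the pattern of the contractile genes. CKM, the muscle creatine kinase that regenerates ATP, was at 10.37, 10.34 and 10.26 in Pi pools a, b and c and at 11.19, 11.28 and 11.60 in DL pools a, b and c. The 2 groups were far apart relative to their ranges, DL pool c being the highest, and CKM was 2.04-fold lower in Pi (-1.03 ± 0.12, limma adjusted p = 0.0286; 1.29e-05 with all 24 arrays). PYGM, the muscle glycogen phosphorylase, was at 8.17, 7.98 and 8.17 in Pi and at 9.27, 9.40 and 9.40 in DL. It was 2.39-fold lower in Pi (-1.26 ± 0.08, limma adjusted p = 0.0153; 4.44e-07 with all 24 arrays), and 2 of its 4 probe sets passed, with differences from -1.26 to -0.19. PGAM2, the muscle phosphoglycerate mutase, was at 11.60, 11.56 and 11.63 in Pi and at 12.03, 12.13 and 12.22 in DL (-0.53 ± 0.06, limma adjusted p = 0.0286; 0.000678 with all 24 arrays). Of 20 measured genes of the list 3 fell and 0 rose (against 3.02% lower and 2.08% higher of all genes). LPL, the lipase that frees fatty acids from lipoproteins, differed by -1.02 without passing. CA3, a carbonic anhydrase of slow fibres, differed by 0.43 (limma adjusted p = 0.059).

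The wider glycolytic list had a median of -0.15. Of its 19 genes 2 were lower (PGAM2 again and PFKL) and 0 higher, against 3.02% and 2.08% of all genes. PFKL, the liver-type phosphofructokinase, was at 6.40, 6.49 and 6.54 in Pi and at 7.37, 7.28 and 7.55 in DL (-0.92 ± 0.09, limma adjusted p = 0.0225), and it did not pass with all 24 arrays (0.141). The other phosphofructokinase genes lay lower in every Pi pool without passing: PFKM, the muscle type, differed by -0.45 and PFKP, the platelet type, by -1.42. ENO1, the ubiquitous enolase, differed by -0.46 (limma adjusted p = 0.0612). In all, 9 of the 19 had every Pi pool below every DL pool (against 17.8% of all genes). GAPDH's brightest probe set overlapped between breeds, with a difference of -0.10 that was 0.41 on the hybridisation control scale. Of the 5 probe sets of GAPDH 1 was lower in Pi and 0 higher. The lower one differed by -0.62 (limma adjusted p = 0.0395 here, 0.000836 with all 24 arrays). Another lay lower in every Pi pool, by 0.18, without passing.

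Oxidative phosphorylation genes passed in both directions. Of 59 genes 2 rose and 4 fell (against 2.08% higher and 3.02% lower of all genes), with a median of -0.05. NDUFS6, a subunit of respiratory complex I, was at 8.63, 8.89 and 8.71 in Pi and at 8.04, 8.05 and 7.94 in DL (0.73 ± 0.08, limma adjusted p = 0.0269; 0.0135 with all 24 arrays), while its second probe set differed by -0.17. ATP5A1, the alpha subunit of ATP synthase, rose by 0.27 (limma adjusted p = 0.0438; 0.0608 with all 24 arrays). The genes that fell were the complex I subunits NDUFA3, NDUFA12 and NDUFB10 and the ATP synthase subunit ATP5J, by 0.56, 0.54, 0.45 and 0.57 in that order; all 4 also passed with all 24 arrays, and NDUFB10 was 0.06 on the hybridisation control scale. The genes with the largest differences of the list, COX7C at 0.92, NDUFV3 at -0.90 and COX7A1 at -0.83, did not pass here, and COX7C alone of them did with all 24 arrays (limma adjusted p = 0.0312).

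Of the fatty acid oxidation genes, ACADM and DECR1 passed, both upward. ACADM, the medium-chain acyl-CoA dehydrogenase, was at 11.03, 10.77 and 11.03 in Pi and at 10.35, 10.24 and 10.41 in DL (0.61 ± 0.10, limma adjusted p = 0.0447; 0.0212 with all 24 arrays). DECR1, the reductase for unsaturated fatty acids, was at 8.12, 8.08 and 8.30 in Pi and at 7.58, 7.61 and 7.43 in DL (0.63 ± 0.08, limma adjusted p = 0.0342; 0.0279 with all 24 arrays). In both genes the lowest Pi pool lay above the highest DL pool. They were 2 of the 29 measured genes, 0 fell (against 2.08% higher and 3.02% lower of all genes), and the median of the list was -0.02, that of all genes.

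**Figure D3:**
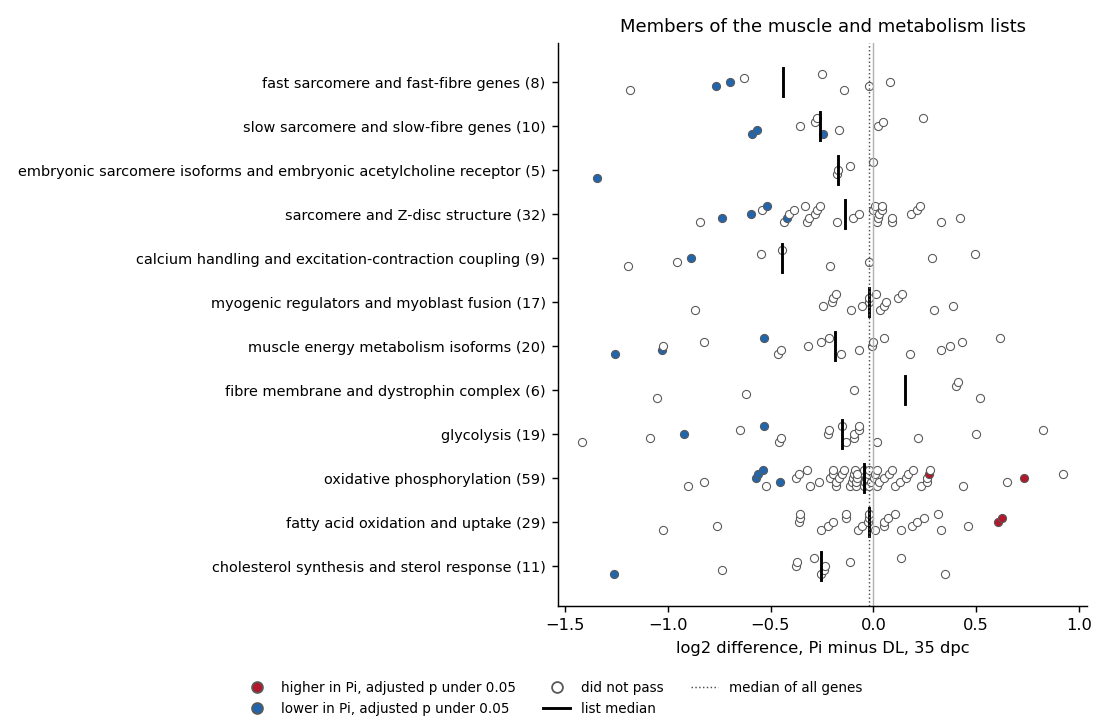
Log2 difference (Pi minus DL) of each measured gene of the muscle and metabolism lists (filled blue, lower in Pi; filled red, higher in Pi; open, did not pass), with list medians as bars, the median of all genes as a dotted line and the number of genes in brackets. Passed members of the first 7 lists and of glycolysis are all lower in Pi, while oxidative phosphorylation and fatty acid oxidation hold the 4 that are higher.

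Regulators of muscle formation did not pass the test. Of 17 measured genes 0 rose and 0 fell by limma, also with all 24 arrays, and the median was -0.02. At an unadjusted p under 0.05 in limma 2 were higher and 0 lower (against 11.2% and 15.3% of all genes). MYOD1, a master regulator of the myoblast, was at 7.94, 8.56 and 8.43 in Pi and at 8.54, 8.43 and 8.55 in DL. MYF5, which acts with it in early myoblasts, was at 8.73, 9.52 and 9.76 in Pi and at 9.15, 9.79 and 9.81 in DL. MSTN, myostatin, the brake on muscle growth, was at 8.80, 9.14 and 9.40 in Pi and at 9.29, 9.29 and 8.92 in DL. By these brightest probe sets the breeds overlapped in all 3, and Pi pool a was the lowest of the 6 pools in each. The second probe set of MYOD1 was at 7.01, 7.20 and 7.11 in Pi and at 8.09, 8.17 and 7.65 in DL, without overlap (-0.86 ± 0.16), and did not pass (limma adjusted p = 0.0562; 0.22 with all 24 arrays). MYF6, a late regulator of fibres, was lower in every Pi pool (-0.18, limma adjusted p = 0.257). MSC, a repressor of myogenic factors, had the widest gap of the list at -0.87, carried by Pi pool a at 5.47 against 6.95 and 6.91 in Pi pools b and c, and did not pass (limma adjusted p = 0.354). MEF2D, a partner of the myogenic factors, and VGLL3, a cofactor of TEAD factors, were higher in every Pi pool by 0.39 and 0.29, without passing. For MYOG, PAX7, ACTA1, PVALB and CSRP3 no probe set carried the symbol.

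In the insulin-like growth factor system, a binding protein differed most clearly. IGFBP5, which binds the growth factors in the matrix and is made by differentiating myoblasts, was at 8.48, 8.63 and 8.61 in Pi pools a, b and c and at 10.06, 10.03 and 9.66 in DL pools a, b and c. The highest Pi pool was a full unit below the lowest DL pool, and IGFBP5 was 2.54-fold lower in Pi (-1.34 ± 0.13, limma adjusted p = 0.023; 0.00506 with all 24 arrays). IGF2, the main fetal growth factor, was at 12.41, 12.34 and 12.34 in Pi and at 12.96, 12.87 and 12.67 in DL by its brightest probe set (-0.47 ± 0.09, limma adjusted p = 0.059). Of its 13 probe sets 9 were above background, 2 were lower (-0.81 and -0.91, limma adjusted p = 0.0329 and 0.0342; 0.0184 and 0.008 with all 24 arrays) and 0 higher; these 2 were singled out after their values were seen. IGF2R, which clears IGF2 from the cell surface, was at 2.07, 3.53 and 3.53 in Pi and at 6.10, 5.57 and 5.15 in DL. Pi pool a was at background, and the difference of -2.56 ± 0.50 did not pass here (limma adjusted p = 0.0649) but did with all 24 arrays (0.00113). PHLDA2, an imprinted gene that limits growth of the mouse placenta, rose by 0.45 (limma adjusted p = 0.0345; 0.201 with all 24 arrays). Of the 23 measured genes 1 rose and 1 fell (against 2.08% higher and 3.02% lower of all genes), with a median of -0.06.

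Genes tied to meat quality and growth in pigs were mostly level or undetected. CAPN1, the calcium-dependent protease that tenderises meat, was at 7.15, 7.21 and 7.23 in Pi and at 7.89, 7.87 and 8.01 in DL. All Pi pools were below all DL pools and CAPN1 was 1.66-fold lower in Pi (-0.73 ± 0.05, limma adjusted p = 0.0171; 0.00114 with all 24 arrays). CAST, its inhibitor calpastatin, was at 9.03, 9.18 and 9.25 in Pi and at 8.78, 9.06 and 8.71 in DL, with 1 Pi pool below 1 DL pool, and did not pass. CAPN3, the muscle calpain, was at 5.58, 4.69 and 6.13 in Pi and at 6.50, 6.62 and 6.43 in DL, a difference of -1.05 that passed only in the fit of all 24 arrays (0.0329; limma adjusted p = 0.205 here). CTSK, a collagen-cleaving cathepsin, fell by 0.53 (limma adjusted p = 0.0218; 0.0805 with all 24 arrays). LEPR, PRKAG3 and PHKG1 were at background on all 6 arrays, LEP on 5, MC4R did not pass at 2.39 to 2.55, and LCORL overlapped between breeds. HMGA2, PLAG1, VRTN and NR6A1 had no probe set with their symbol.

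The 15 largest differences upward in Pi were led by TMOD3, TMEM38A, TRO and POLR1E. TMOD3, tropomodulin 3, which caps actin filaments, was at 9.05, 9.43 and 9.29 in Pi pools a, b and c and at 5.39, 6.50 and 5.96 in DL pools a, b and c. TMOD3 was 9.9-fold higher in Pi (3.31 ± 0.31, limma adjusted p = 0.0218; 0.0292 with all 24 arrays), although its second probe set differed by only 0.57 and did not pass. TRO, the adhesion protein trophinin, was at 5.81, 7.36 and 6.77 in Pi and at 3.90, 3.83 and 3.69 in DL (2.84 ± 0.41, limma adjusted p = 0.0383; 5.46e-06 with all 24 arrays). POLR1E, a subunit of RNA polymerase I, was at 7.37, 7.64 and 7.84 in Pi and at 5.01, 4.58 and 5.12 in DL (2.71 ± 0.19, limma adjusted p = 0.017; 0.00332 with all 24 arrays). In each of these the lowest Pi pool lay well above the highest DL pool.

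DYNLL2, a dynein light chain that also binds myosin V, was at 12.44, 12.80 and 12.72 in Pi and at 11.40, 11.44 and 11.44 in DL (1.23 ± 0.10, limma adjusted p = 0.0198; 5.46e-06 with all 24 arrays). CLIC1, an intracellular chloride channel, was at 11.13, 11.60 and 11.54 in Pi and at 10.18, 10.41 and 10.32 in DL (1.12 ± 0.15, limma adjusted p = 0.0336; 0.00892 with all 24 arrays). The breeds did not overlap in either gene. RAE1, a carrier in mRNA export, was at 9.64, 9.40 and 9.52 in Pi and at 8.31, 8.42 and 8.30 in DL (1.18 ± 0.08, limma adjusted p = 0.0169; 0.000147 with all 24 arrays). NDRG2, a gene induced during differentiation of several tissues, rose by 1.24, IFT52, a part of the transport train of cilia, by 1.16 and SPC25, a kinetochore protein, by 1.19, and all 3 passed in both fits. The remaining genes of the 15 passed here and not with all 24 arrays: ATP8B1, a phospholipid flippase at background in DL (at least 2.77-fold higher in Pi), AGPAT4, an acyltransferase of phospholipid synthesis (1.53), AHR, the aryl hydrocarbon receptor (1.44), MTHFD2, a mitochondrial folate enzyme (1.29), and KIAA0753, a centriole protein (1.25).

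The 15 largest differences downward were led by FAM234A, GARNL3, LIMS2 and HBE1. HBE1, the embryonic epsilon globin, was at 7.13, 6.43 and 6.54 in Pi pools a, b and c and at 9.05, 8.19 and 8.84 in DL pools a, b and c. The groups were separate, with Pi pool a the highest of its breed, and HBE1 was 3.99-fold lower in Pi (-2.00 ± 0.30, limma adjusted p = 0.0417; 7.72e-06 with all 24 arrays). LIMS2, an adaptor of integrin adhesion sites, was at 2.72, 2.13 and 2.57 in Pi, 1 pool of which was at background, and at 4.09, 4.5 and 4.89 in DL (-2.02 ± 0.26, limma adjusted p = 0.0329; 4.82e-05 with all 24 arrays). GARNL3 was at 4.02, 4.17 and 3.88 in Pi and at 6.52, 5.50 and 6.17 in DL (-2.04 ± 0.28, limma adjusted p = 0.0355; 0.000158 with all 24 arrays). PYCR3, an enzyme of proline synthesis, was at 5.50, 5.86 and 5.94 in Pi and at 7.55, 7.36 and 7.15 in DL (-1.59 ± 0.16, limma adjusted p = 0.0249; 0.000836 with all 24 arrays).

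Among the rest of the 15 were ACSL6, DGAT1 and UCP2. ACSL6, an acyl-CoA synthetase, was at 3.12, 3.0 and 3.28 in Pi and at 4.19, 4.97 and 5.18 in DL (-1.65 ± 0.28, limma adjusted p = 0.0498; 1.77e-05 with all 24 arrays). DGAT1, which makes the last step of triglyceride synthesis, was at 3.91, 3.45 and 3.86 in Pi and at 5.32, 5.13 and 5.01 in DL (-1.42 ± 0.16, limma adjusted p = 0.0271; 0.0898 with all 24 arrays). UCP2, a mitochondrial carrier, was at 4.24, 4.56 and 3.73 in Pi and at 5.47, 5.91 and 5.84 in DL (-1.56 ± 0.25, limma adjusted p = 0.0459; 0.0608 with all 24 arrays). All 3 were dim in both breeds and separate between them. FAM57B (-1.66), C2H11orf68 (-1.63), CTTNBP2NL (-1.56), ST3GAL3, a sialyltransferase (-1.53), and C3H7orf50 (-1.42) passed in both fits, while FAM234A (-2.19), PSD, an activator of the ARF6 GTPase (-1.855), and HPCAL1, a neuronal calcium sensor (-1.75), passed in the fit of the 6 arrays alone.

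**Figure D4:**
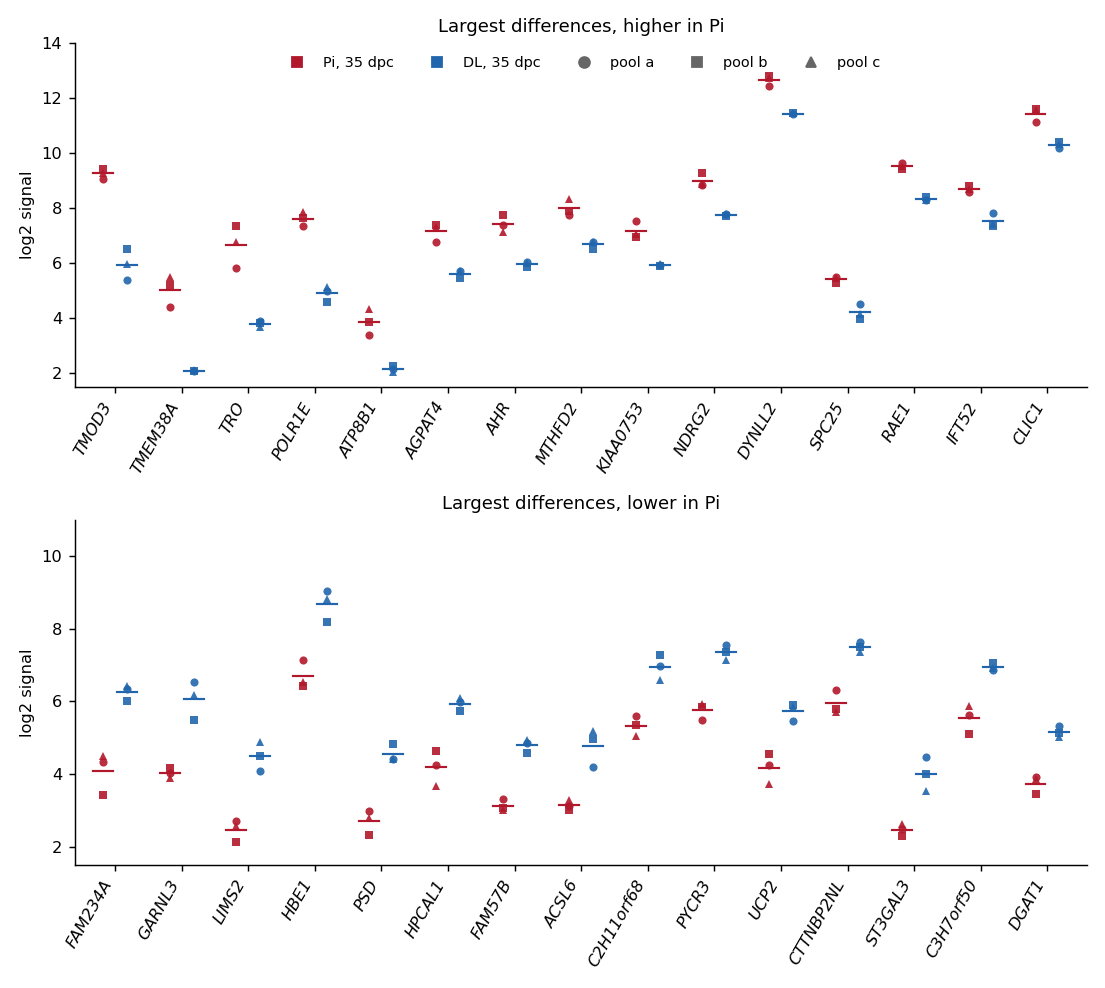
Log2 signal in each pool of Pi (red, left) and DL (blue, right) for the 15 genes with the largest positive and the 15 with the largest negative differences, with group means as lines; the y axes start above 0. TMEM38A and ATP8B1 sit at background in DL, and many of the genes lower in Pi lie below 5 in Pi.

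SREBF2, the transcription factor that switches on cholesterol synthesis, was at 7.93, 7.88 and 7.84 in Pi and at 9.26, 9.03 and 9.14 in DL. Its pools were far apart (-1.26 ± 0.07, limma adjusted p = 0.0153; 0.000288 with all 24 arrays), but its 4 probe sets ranged from -1.26 to 1.17, with 1 lower and 0 higher. It was the only 1 of 11 cholesterol genes to pass (against 3.02% lower and 2.08% higher of all genes). Of the 11, 6 had every Pi pool below every DL pool (against 17.8% of all genes) and the median was -0.26. Among adipocyte genes, 2 of 18 fell and 0 rose (against 3.02% lower and 2.08% higher of all genes). The 2 that fell were UCP2 and FABP4, the fatty acid carrier of adipocytes, and neither passed with all 24 arrays. Of the 18, 7 were above background on all 6 arrays. FABP4 was at background in Pi (2.34, 2.41 and 2.32) and just above in DL (2.78, 2.75 and 2.81), at least 1.3-fold lower in Pi (limma adjusted p = 0.0249; 0.351 with all 24 arrays), a difference of -0.42 that was 0.09 on the hybridisation control scale. FABP3, the carrier of muscle, was at 10.29, 10.46 and 10.21 in Pi and at 10.49, 10.41 and 10.83 in DL, overlapping.

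Growth and stress lists gave few calls, though the hypoxia list gave more for its size. Over all genes 2.08% were higher and 3.02% lower. In the cell cycle list 1 of 31 genes rose and 2 fell: RRM1, a ribonucleotide reductase subunit, by 0.50 upward, MCM5, a replication helicase subunit, fell by 0.82 and CDC20, an activator of the mitotic ubiquitin ligase, fell by 0.56. The second-brightest probe set of MCM5 ran the other way, with every Pi pool above every DL pool (0.60 ± 0.13, limma adjusted p = 0.0755). MCM5 alone of the 3 also passed with all 24 arrays (0.016), and CDC25C, the list's largest difference at 1.47, did not pass. Of 60 cytosolic ribosomal protein genes 1 rose (RPL9, by 0.23; not with all 24 arrays) and 0 fell, with a median of 0.03. Of 14 measured genes of the hypoxia list 2 rose and 2 fell. VEGFA, the vascular growth factor, rose by 0.59 and EGLN1, the oxygen-sensing hydroxylase, by 0.61. A dimmer VEGFA probe set, above background on all 6 arrays, differed by -0.21 without passing. The other EGLN1 probe sets differed by 0.18 and -0.13, also without passing. LOX, which cross-links collagen, fell by 0.46 and P4HA2, a collagen hydroxylase, by 0.26. The second probe set of P4HA2 differed by 0.36 without passing. By brightest probe sets, VEGFA alone of these 4 genes passed with all 24 arrays (0.00625), and LOX and P4HA2 were positive on the hybridisation control scale. ADM, adrenomedullin, had the widest gap of the list at -1.49 and passed only with all 24 arrays (limma adjusted p = 0.125 here, 0.0207 there). Of 31 immediate early and heat shock genes HSPB1 alone fell and 0 rose. Of 25 genes of developmental signalling pathways 1 fell, DKK3, a secreted Dickkopf family protein (-0.88 ± 0.09, limma adjusted p = 0.025; 0.000305 with all 24 arrays), and 0 rose; none of 6 HOX genes passed.

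Collagen genes were mixed. COL5A2, a fibril-regulating collagen chain, was at 7.73, 7.82 and 7.98 in Pi and at 6.95, 7.10 and 6.77 in DL (0.91 ± 0.11, limma adjusted p = 0.0312; 0.413 with all 24 arrays). COL6A2, a chain of the microfibrillar collagen around muscle fibres, was at 8.90, 9.0 and 8.89 in Pi and at 8.27, 8.41 and 8.09 in DL (0.68 ± 0.10, limma adjusted p = 0.0366; 0.0289 with all 24 arrays). Both chains were higher in every Pi pool. The list of 26 matrix genes as a whole had 2 higher and 1 lower (LOX), against 2.08% and 3.02% of all genes. Its median was -0.15, and 9 of its genes had every Pi pool below every DL pool (against 17.8% of all genes).

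Markers of other tissues that a dissection of embryonic back muscle could include passed in few cases. Of 19 neuronal markers, 10 of neural progenitors, 9 of glia, 35 of immune cells, 10 of cartilage, 11 of tendon, 20 of epithelia, 6 of heart, 10 of mesonephros and 11 of lung and gut, 0 passed in either direction by limma. Over these and the liver markers, 168 genes in 11 lists, 5 were higher and 8 lower at an unadjusted p under 0.05 in limma. The shares of all genes were 11.2% and 15.3%. With all 24 arrays 2 were higher and 1 lower (against 1.89% and 3.47% of all genes). Many of these markers were dim: 16 of 19 neuronal, 12 of 35 immune and 2 of 11 lung and gut markers were above background on all 6 arrays. The summed signal of the neuronal markers (log2 of the sum of linear signals) was 15.26 to 15.61 in Pi and 15.49 to 15.68 in DL. Transcripts of listed genes were thus present in both breeds, but such a sum can rest on a few bright members. The mean log2 signal of the list was 8.37 to 8.70 in Pi and 8.57 to 8.63 in DL. CHGB, a secretory granule protein, had the largest difference of the neuronal list, -0.70, which passed only with all 24 arrays (limma adjusted p = 0.0601 here, 0.0317 there). Of 30 liver markers 0 passed and 11 were above background on all 6 arrays; their sum was 11.89 to 12.04 in Pi and 11.97 to 13.28 in DL. RBP4, the retinol carrier, was lower in every Pi pool (2.72, 4.0 and 3.92 in Pi, 6.36, 6.55 and 5.34 in DL) without passing (limma adjusted p = 0.0653). The part of the liver and neuronal transcripts in the muscle differences was not tested.

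Red cell genes were mixed, with 6 of 10 differences positive and a median of 0.06. Of 10 erythroid markers HBE1 alone fell and 0 rose; AHSP, the chaperone of alpha globin, differed by -1.10 (7.20, 6.37 and 6.73 in Pi, 8.02, 7.62 and 7.96 in DL; limma adjusted p = 0.0814) and ALAS2, the first enzyme of red cell haem synthesis, by -0.44. In HBE1, AHSP and ALAS2 every Pi pool lay below every DL pool, and in 0 of the 10 every Pi pool lay above (against 17.8% and 15.8% of all genes). The mean log2 signal of the list was 6.67 to 6.76 in Pi and 6.90 to 7.10 in DL. Its summed signal was 11.81 to 11.89 in Pi and 11.89 to 12.02 in DL. Among 19 endothelial markers RAMP2, a receptor partner for adrenomedullin, rose by 0.62 (limma adjusted p = 0.0301; 0.0113 with all 24 arrays) and MCAM, an adhesion molecule, fell by 0.99 (limma adjusted p = 0.0329; 0.673 with all 24 arrays). Of 10 smooth muscle markers DES alone fell, and of 10 bone markers CTSK alone. Of 5 melanocyte and notochord markers KIT, the stem cell factor receptor, fell by 0.96 (limma adjusted p = 0.0321, and 0.477 with all 24 arrays). Over all genes 2.08% were higher and 3.02% lower.

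B2M, the light chain of MHC class I, shows how far probe sets of 1 gene can part. Its brightest probe set was at 15.03, 15.04 and 14.94 in Pi and at 15.68, 15.74 and 15.54 in DL (-0.65 ± 0.07, limma adjusted p = 0.026; 0.000356 with all 24 arrays). Of its 9 probe sets 3 were lower and 1 higher in Pi; a dimmer one, chosen after its values were seen, was at 6.82, 6.89 and 6.93 in Pi and at 8.31, 8.20 and 8.16 in DL, and the higher one differed by 0.29. B2M was the only 1 of 30 interferon and MHC class I genes to pass by its brightest probe set. Over all genes 2.08% were higher and 3.02% lower. SLA-8, an MHC class I gene, passed upward by its second probe set, at 7.61, 7.45 and 7.66 in Pi and at 6.21, 6.03 and 5.51 in DL (1.66 ± 0.20, limma adjusted p = 0.0301; 0.000501 with all 24 arrays), while its brightest differed by 0.87 (limma adjusted p = 0.302). PTGES3, a co-chaperone of HSP90, was also singled out after its values were seen. Its dimmer probe set was at 8.28, 7.44 and 7.08 in Pi and at 2.33, 2.66 and 2.4 in DL (5.14 ± 0.33, limma adjusted p = 0.0169; 0.00333 with all 24 arrays), and its brighter probe set differed by 0.74 and passed only with all 24 arrays (limma adjusted p = 0.0763 here, 0.035 there). ELAVL1, an RNA-binding protein picked in the same way, had 1 probe set lower by 2.41 and 1 higher by 0.55, while its brightest differed by 0.04. Levels of a gene read from 1 probe set are therefore descriptions of that probe set.

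Few of the breed differences of 35 dpc passed again at a later stage. In fits of 6 arrays each, 11 probe sets passed at 63 dpc (0.0458%), 16 at 91 dpc (0.0667%) and 21 in adults (0.0875%), but the median residual SD was also larger there (0.23, 0.25 and 0.34, against 0.18 at 35 dpc). With the spread from all 24 arrays 329, 653 and 1519 of all 23999 probe sets passed at those stages, in either direction. Of the 1008 of 35 dpc, 20, 42 and 54 were among these with the same direction. Of the 1008 probe sets of 35 dpc, 0 passed in the same direction at 63 dpc, 1 at 91 dpc and 1 in adults, and 1 passed in the opposite direction at 91 dpc. The opposite one was TSPO, a protein of the outer mitochondrial membrane, at -0.81 at 35 dpc and 1.43 at 91 dpc, named after its values were seen. The adult one was ST3GAL3, with a difference of -3.72 in adults and -1.53 at 35 dpc. Between these stages ST3GAL3 had the opposite sign, by 1.93 at 63 dpc (limma adjusted p = 0.21; 0.0315 with all 24 arrays) and by 1.59 at 91 dpc (0.263; 0.0525 with all 24 arrays). The one of 91 dpc has no gene symbol and differed by 0.96 at 35 dpc and 1.42 at 91 dpc. The sign at 35 dpc recurred in 44.5%, 56.8% and 48.9% of the 1008 at 63 dpc, at 91 dpc and in adults, beside 48.3%, 52.9% and 50.3% of all probe sets.

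Of the 107 muscle genes 0 passed at 63 dpc, at 91 dpc or in adults by limma with the 6 arrays of a stage. At an unadjusted p under 0.05, 20, 22 and 23 were lower and 9, 7 and 4 higher in Pi there. Of all 23999 probe sets 3595, 3262 and 2524 had an unadjusted p under 0.05 at those stages, in either direction. With the spread from all 24 arrays 0 of the 107 were lower at 63 dpc, 6 at 91 dpc and 16 in adults, and 0, 1 and 2 higher. No share of all genes in each direction is given for these later stages. The counts there therefore do not show whether muscle genes differed more often than other genes. The median difference of the 107 was -0.17 at 35 dpc, -0.03 at 63 dpc, -0.11 at 91 dpc and -0.09 in adults. Over all genes it was -0.02, 0.02, -0.02 and -0.01 in that order. The 14 lower at 35 dpc, with a median of -0.65 there by selection, had medians of 0.07, -0.09 and -0.01. TNNT2 differed by 0.20 at 63 dpc, 0.66 at 91 dpc and 0.64 in adults, RYR1 by 0.18, -0.11 and -0.14, and CKM by -0.07, -0.25 and -0.01.

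**Figure D5:**
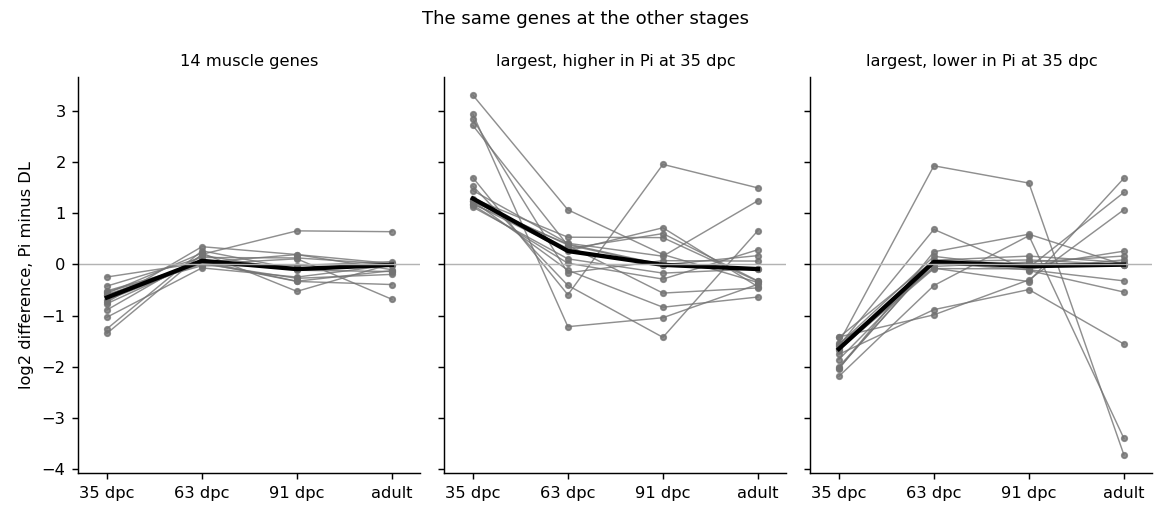
Log2 difference (Pi minus DL) at 35, 63 and 91 dpc and in adults for the 14 muscle genes (left) and the 15 genes of each direction with the largest differences (middle and right), 1 grey line a gene, with the median in black. All 3 sets were chosen at 35 dpc, and their medians lie between -0.09 and 0.26 at the later stages.

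The change of the breed difference itself was tested between 35 and 63 dpc, over 12 arrays. It passed for 1395 probe sets (5.81%). Among genes it was more negative at 35 dpc for 365 (5.4%) and more positive for 228 (3.37%); of the 107 muscle genes, 14 were more negative and 3 more positive. The change was -1.54 for TNNT2 (limma adjusted p = 0.000801), -1.52 for PYGM (0.000734), -1.06 for RYR1 (0.00209), -0.96 for CKM (0.0107) and -0.74 for TNNI2 (0.00802). It was -1.98 for IGFBP5 (0.00209) and -1.27 for CAPN1 (0.000744), which differed by 0.63 and 0.54 at 63 dpc. As the 35 dpc arrays enter both this test and the choice of genes, the change is not independent of the differences above.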

How the data were processed

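The deposited table held the authors' normalized log2 signals of 24 arrays (GCOS 1.1.1 is named in the submitters' processing notes; no source read here names the summarisation method). The logarithm was taken as base 2 from the range, 1.60 to 16.10. All 24 sorted columns held identical values, so the arrays had been quantile-normalized before deposit, which removes any overall difference in RNA amount. Precision was limited by the number of arrays, 3 a group, and for dim probe sets also by background.

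Of 24123 probe sets 124 controls were left out. The platform annotation gave 1 gene symbol to 10069 of the others, several to 198 and none to 13732; it is the array's own and can be old. A gene was represented by its brightest probe set at 35 dpc. A value counted as background when it did not exceed the highest of 23 blank controls on its array. Where a group was at background on all 3 arrays, the fold was bounded against that ceiling or the probe set's own signal, whichever was higher, and is given as "at least". Differences, SEs and two-sided p-values came from limma 3.58.1 in R 4.3.3 (lmFit and eBayes) on the 6 arrays, with Benjamini-Hochberg adjustment over all 23999 probe sets. The code was tested on simulated data. Figures used matplotlib 3.10.9 in Python 3.11.15.

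Named genes were the 15 largest passed differences each way whose pools did not overlap and whose higher group lay above background on all 3 arrays, the 3 largest differences in each of 39 gene lists, a panel of genes of muscle, growth and meat quality, and genes that passed at every stage. The members, lists and tests were chosen with earlier results of these data known. Alternatives were the spread from all 24 arrays, an intensity trend, a filter on dim probe sets, scaling to the hybridisation controls, the pool letter as a block, leaving out each pool, the median over a gene's probe sets and, added after seeing the data, a robust prior variance.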

Additional observations from a re-analysis of the deposited data

Results flagged for a closer look

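For 59 of the genes named here the breed difference at 35 dpc differed from that at 63 dpc in a test of the change itself (limma on 12 arrays, adjusted p under 0.05). Each value below is the log2 difference at 35 dpc minus that at 63 dpc, which was negative for 39 and positive for 20. Most of these genes were chosen for their difference at 35 dpc, and the unexplained title element of the 35 dpc samples goes with stage in this comparison.

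In 7 of the 59 a group was at background on all its arrays, so the fitted change is not a measured size. These were TMEM38A (4.15; DL at 35 dpc), TRO (3.0; Pi at 63 dpc), FAM57B (-1.58; Pi at 63 dpc), SERPINA1 (8.88; Pi at 63 dpc), and PSD (-1.88), ACSL6 (-1.61) and CHGB (-0.76), the last 3 at background in both breeds at 63 dpc. HBE1, which is not among the 7, was also very low at 63 dpc, with means of 2.24 in Pi and 2.19 in DL. Its change therefore mostly restates the difference at 35 dpc. The liver gene SERPINA1 averaged 2.21 in Pi and 12.98 in DL at 63 dpc. The part of liver transcripts in the changes was not tested.

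Genes of contraction, the Z-disc and muscle energy had a change of -1.54 (TNNT2), -1.52 (PYGM), -1.08 (TPM2), -1.06 (RYR1), -0.96 (CKM), -0.85 (TNNT3), -0.79 (MYL3), -0.74 (TNNI2), -0.65 (MYH7), -0.61 (DES), -0.56 (PDLIM7), -0.53 (CRYAB) and -0.51 (PGAM2). HSPB1 had -0.81, CAPN1 -1.27 and CTSK -0.48. MYF6 (0.54), which differed by -0.72 at 63 dpc beside -0.18 at 35 dpc, and MYOT (0.54) were more positive at 35 dpc.

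Among genes of mitochondria and lipids the change was -2.20 for NDUFV3, -1.72 for UCP2, -1.70 for SREBF2, -1.1 for TSPO, -0.85 for NDUFA3 and -0.54 for NDUFA12. It was 1.82 for NDUFS6, 1.12 for DECR1, 0.65 for ACADM and 0.36 for ATP5A1.

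The other negative changes were those of ST3GAL3 (-3.46), GARNL3 (-2.29), PYCR3 (-2.27), LIMS2 (-2.10), HBE1 (-2.04), IGFBP5 (-1.98), MCM5 (-1.93), C2H11orf68 (-1.69), C3H7orf50 (-1.51), CTTNBP2NL (-1.49), CDC20 (-1.32), DKK3 (-0.60) and B2M (-0.55). The other positive ones were those of AHSP (2.08), COL5A2 (1.79), NDRG2 (1.35), IFT52 (1.13), CLIC1 (1.01), SPC25 (0.93), DYNLL2 (0.85), RAE1 (0.78), VEGFA (0.69), RAMP2 (0.58) and RPL9 (0.39).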

How the results depend on the processing

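Scaling the arrays to the hybridisation controls gave 13984 calls (13677 higher and 307 lower in Pi), with 39 muscle genes higher and 5 lower; 635 of the 1008 calls kept their direction and passed, and 104 turned their sign. The sign also turned for TNNI1 (0.27), TNNC2 (0.36), MYLPF (0.49), MYL2 (0.34), PDLIM7 (0.0876), GAPDH (0.41), NDUFB10 (0.0563), FABP4 (0.0859), LOX (0.0460), P4HA2 (0.24) and LEPR (0.51). Leaving out 1 pool left 0 to 673 calls (0 to 328 higher, 0 to 345 lower) and 0 to 5 muscle genes lower and 0 to 1 higher; these fits had fewer arrays. The 4 fits that gave the fewest were those without Pi pool c (0), DL pool a (0), DL pool b (2) and DL pool c (1). The spread from all 24 arrays gave 966 calls at 35 dpc, an intensity trend 938, the filter on dim probe sets 915 (9 muscle genes lower in place of 14) and the robust prior variance, added after seeing the data, 738. Of the same 1008, 414, 782, 745 and 738 passed in those fits. The spread from all 24 arrays gave 329 calls at 63 dpc, 653 at 91 dpc and 1519 in adults, and 793 for the change between 35 and 63 dpc. The cause of these changes was not tested.

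Pool letters a, b and c are shared by the groups, but deviations of same-lettered Pi and DL pools correlated at 0.09, -0.02 and -0.07, so the letters were not taken as pairs. With the letter as a replicate block 0 probe sets passed, higher or lower, and 0 muscle genes, and 378 passed for the change between 35 and 63 dpc. With the median over each gene's probe sets the list medians that moved included those of fast-fibre genes (-0.33 in place of -0.44), calcium handling (-0.21 in place of -0.45), the dystrophin complex (-0.25 in place of 0.15) and smooth muscle (-0.04 in place of -0.18). The fit of 35 dpc had 3 pools a group and 4 residual degrees of freedom, and genes at background in a breed give only bounds.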

Other observations

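Among probe sets without a gene symbol, the 2 largest passed differences in each direction were singled out after their values were seen. The larger increase was at 6.98, 7.42 and 6.59 in Pi pools a, b and c and at 3.11, 3.14 and 3.71 in DL pools a, b and c (difference 3.68 ± 0.28, limma adjusted p = 0.0171). The other increase was at 6.77, 7.26 and 6.97 in Pi and at 4.67, 3.64 and 2.94 in DL (3.25 ± 0.47, limma adjusted p = 0.0384). The larger decrease was at 2.90, 3.15 and 2.42 in Pi and at 6.75, 6.63 and 6.37 in DL (-3.76 ± 0.22, limma adjusted p = 0.0153). The other decrease was at 3.16, 2.13 and 3.02 in Pi and at 5.38, 5.35 and 6.76 in DL (-3.06 ± 0.51, limma adjusted p = 0.0481). All 4 also passed with the spread from all 24 arrays, and the groups of 35 dpc did not overlap in any of them. The larger decrease differed by -3.68 at 91 dpc as well, where it passed with the spread from all 24 arrays (limma adjusted p = 0.000238) and not within that stage (0.0851).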
